A study of Mus musculus with 27 samples.

Results

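The SLC25 mitochondrial carriers were taken as every gene whose name on the array is Slc25a followed by a number, or is Ucp1, Ucp2 or Ucp3. The array holds 45 such genes, on 54 probes, among 35527 gene names, and 24 of the 45 passed the filter on low signal and were tested, among 16648 genes tested. RNA was measured in single muscle fibers (myofibers) of the mouse tibialis anterior, a fast muscle of the lower leg, on 1-colour arrays after amplification of the RNA of each fiber. All mice were male and labelled as 3 months old. WT were control littermates, whose Smn1 and Cre alleles are not labelled further (8 myofibers, 4 from each of 2 mice). Smn1deltaSKM mice, a muscle model of spinal muscular atrophy, lack a floxed exon 7 of Smn1, the survival motor neuron gene, where Cre is driven by the human alpha-skeletal actin promoter, so the deletion is that of the myofibers and not of the motor neurons (12 myofibers, 4 from each of 3 mice). Smn1deltaSKM+AFS mice carried the same floxed allele and Cre and received amniotic fluid stem cells, c-kit positive and GFP positive, through the tail vein (7 myofibers, 4 and 3 from 2 mice). According to the methods these mice were injected at 3 months and killed 1 month later, which differs from the labelled age, and the uninjected knockouts received no sham injection. The paper's results describe fewer injected fibers from more mice than the labels give, and the labels were followed here.

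Mitochondrial carriers are small proteins of the inner mitochondrial membrane that exchange nucleotides, phosphate, carboxylic acids, amino acids, coenzymes and iron between the matrix and the cytosol. In skeletal muscle the ADP/ATP and phosphate carriers supply the ATP synthase and export its product, the aspartate/glutamate and oxoglutarate carriers run the malate-aspartate shuttle that moves reducing equivalents inwards, and the carnitine carrier brings in fatty acids for oxidation. The uncoupling proteins belong to the same family, and Ucp1 is the one that makes heat in brown fat.

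Values are log2 signals relative to the 75th percentile of the same array, so 0 is the level that 75% of the spots lie below, and the total RNA of a fiber was not measured. A value was used only where the spot was found, lay well above its local background and was uniform, and a gene was tested if it had a value on at least 21 of the 27 arrays. Fibers were averaged within each mouse, the mouse was the replicate, and a member is said to be called where the adjusted p from limma over all genes was under 0.05. Between 23183 and 37595 probes had a value on an array. The 8 WT arrays shared 1 slide and 1 scan day with no array of another group, so slide, scan day and genotype cannot be told apart in any comparison with WT. Knockout myofibers 1 to 3, all of mouse 1 and alone on their slide, stood apart, with median correlations to their own group of 0.849 to 0.900. WT myofiber 8, of mouse 2, also stood apart, with a median correlation of 0.900 to the other WT fibers and 34012 probes with a value. Of the 2 Smn1 probes, 1 read 0.63 to 2.38 in WT, -1.41 to 0.66 in the knockouts and -1.04 to 1.32 in Smn1deltaSKM+AFS, while the ranges of the other overlapped in all 3 groups (1.59 to 2.91, 1.83 to 3.37 and 2.36 to 3.88). The skeletal myofiber markers summed to 1566 to 2380 times the 75th percentile in WT, 950 to 1563 in the knockouts and 1419 to 2339 in Smn1deltaSKM+AFS. Myh2, a fast myosin, was above background on 0, 2 and 2 arrays of these groups, and Pax7, the satellite cell marker, on 1 array of each.

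In the Smn1deltaSKM mice, carriers for phosphate, coenzyme A, aspartate/glutamate and glutathione and the outer-membrane member Slc25a46 were lower than in WT, by 2.00-fold to 5.27-fold. Of the 24 tested members 15 were lower and 9 higher, a split that was 18 and 6 with the mean of a gene's probes and 13 and 11 with median scaling, and 5 were called lower and 1, Slc25a41, higher. Slc25a41 passed the filter only through the groups where it was brighter, on 2 of 8 WT arrays, and its call is given as a description. Over all genes tested 54.5% were lower, and 13.9% were called lower and 8.04% called higher. The members' median difference was -0.35 and that of all genes -0.11. Without knockout myofibers 1 to 3, 5 members were again called lower and 1 higher, each of the 6 named members keeping its call. The members' median was then -0.41 against -0.13 for all genes. Over all genes the calls went from 2320 lower and 1339 higher to 2785 and 1955. Without WT myofiber 8, 6 members were called lower and 0 higher, Slc25a41 losing its call (0.83, limma adjusted p = 0.103) and Slc25a25 gaining one (-1.53, adjusted p = 0.048). All genes then gave 2841 lower and 1580 higher. They gave 932 and 440 without knockout mouse 2, and 1155 and 483 without knockout mouse 3. Leaving out either WT mouse left 0 members called in this comparison, leaving out knockout mouse 2 left 3, and leaving out knockout mouse 3 left 2.

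**Figure D1:**
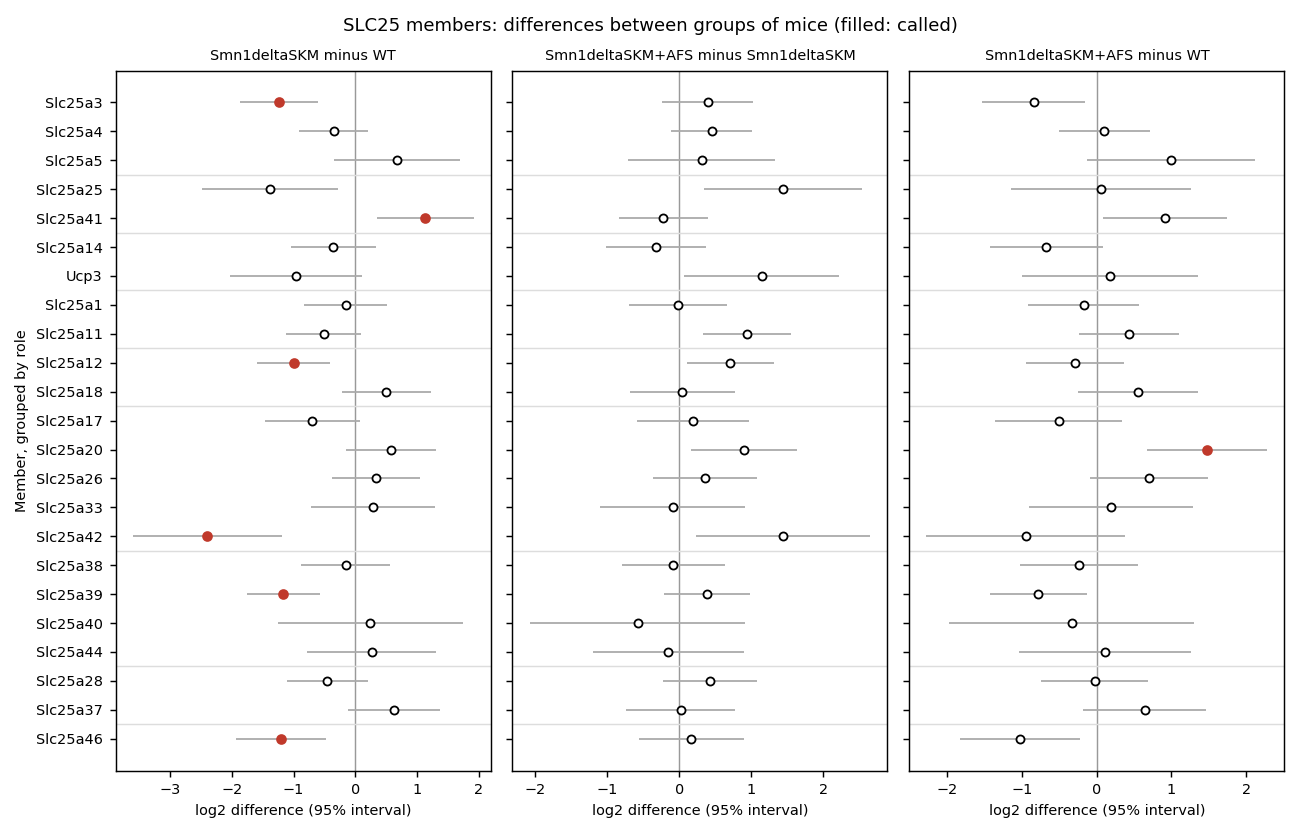
Log2 differences of 23 of the 24 tested members, grouped by what they carry, in the 3 comparisons. Points are differences between group means over mice, bars are 95% intervals from limma, and filled red points are called; 6 points are filled for Smn1deltaSKM minus WT, 0 for Smn1deltaSKM+AFS minus Smn1deltaSKM and 1 for Smn1deltaSKM+AFS minus WT.

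Slc25a3, the phosphate carrier, brings in the phosphate from which the ATP synthase makes ATP. The mean signal was 6.20 and 6.26 in the 2 WT mice, 4.65, 5.27 and 5.04 in the 3 knockout mice, and 5.39 and 5.38 in the 2 Smn1deltaSKM+AFS mice. Every knockout mouse lay under both WT mice, and the injected mice lay between them. Over myofibers the lowest, median and highest values were 5.91, 6.23 and 6.59 in WT, 3.80, 5.05 and 5.79 in the knockouts, and 5.08, 5.37 and 5.75 in Smn1deltaSKM+AFS. All 12 knockout fibers and all 7 fibers of injected mice were below the lowest WT fiber. Slc25a3 fell by 1.24 on the log2 scale in the knockouts (SE 0.276, 95% interval -1.87 to -0.61, limma adjusted p = 0.0207, 2.37-fold lower). Slc25a3 is represented by 2 probes, the brighter at chr10:90579539-90579598 of mm9, minus strand, and the other, at chr10:90579341-90579400, differed by -1.56 (SE 0.416, limma adjusted p over probes = 0.0338). Under quantile normalization and in the authors' own value table the difference was -0.90 and the adjusted p 0.088 and 0.084. Slc25a3, Slc25a42, Slc25a25 and Slc25a35 are members that the study listed from these samples, so their direction here is not independent evidence.

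Slc25a42, the carrier that exchanges coenzyme A for adenine nucleotides across the inner membrane, had the largest difference of the tested members. It read 0.87 and 1.03 in the WT mice, -2.59, -1.01 and -0.75 in the knockout mice and -0.34 and 0.33 in the injected mice. The groups of mice did not overlap, with the injected mice in the middle. Myofibers ran from -0.07 through a median of 1.10 to 1.82 in WT, from -2.95 through -1.34 to -0.12 in the 11 knockout fibers with a value, and from -0.77 through -0.20 to 0.82 in Smn1deltaSKM+AFS. None of those 11 knockout fibers reached the lowest WT fiber. The difference from WT was -2.40 (SE 0.528, 95% interval -3.61 to -1.19, limma adjusted p = 0.0205, 5.27-fold lower). It was -1.60 with normexp background and quantile normalization, -1.83 without knockout mouse 1 and -2.37 without knockout myofibers 1 to 3, and was called in each. The probe lies at chr8:72708298-72708357 of mm9, minus strand.

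The stretches of 250 bases before the annotated starts of Slc25a3 and Slc25a42, and of Slc25a20, the carnitine carrier called in the injected mice, are shown because these members carry the differences on which the comparisons turn. They come from RefSeq on GRCm38.p6, another build than that of the probe positions, at chr10:91123968-91124217 (minus strand), chr8:70212282-70212531 (minus strand) and chr9:108661886-108662135 (plus strand), written in the direction of transcription, with capitals for matches, on either strand, of 7 motifs searched.
Slc25a3: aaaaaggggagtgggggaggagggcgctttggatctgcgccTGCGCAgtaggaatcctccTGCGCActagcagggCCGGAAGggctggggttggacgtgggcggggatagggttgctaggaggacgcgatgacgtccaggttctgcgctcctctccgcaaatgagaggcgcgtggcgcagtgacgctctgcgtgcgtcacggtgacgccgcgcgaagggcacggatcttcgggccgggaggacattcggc
Slc25a42: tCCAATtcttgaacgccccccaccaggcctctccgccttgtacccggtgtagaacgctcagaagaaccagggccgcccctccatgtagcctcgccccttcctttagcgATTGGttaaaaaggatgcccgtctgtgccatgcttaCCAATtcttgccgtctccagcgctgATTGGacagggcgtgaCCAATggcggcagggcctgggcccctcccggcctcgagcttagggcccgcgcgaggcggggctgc
Slc25a20: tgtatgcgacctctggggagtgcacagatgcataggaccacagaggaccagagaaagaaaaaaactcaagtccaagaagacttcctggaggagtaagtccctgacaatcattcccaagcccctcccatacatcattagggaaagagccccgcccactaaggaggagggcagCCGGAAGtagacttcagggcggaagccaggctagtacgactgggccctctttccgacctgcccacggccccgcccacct
The Slc25a3 stretch holds TGCGCA, the core of the NRF1 motif, at 209 and 190 bases before the start and the ETS motif CCGGAAG at 175. At least 1 TGCGCA stood in 6.43% of the 32851 stretches of the same length, 2 or more in 0.816%, and CCGGAAG in 6.91%. The Slc25a42 stretch holds CCAAT, or ATTGG on the other strand, at 249, 142, 106, 81 and 65 bases before the start. At least 1 CCAAT stood in 33.8% of all stretches and as many as 5 in 0.213%. The Slc25a20 stretch holds 1 CCGGAAG at 79. No matches shown overlap. The other motifs searched were CACGTG (E-box, 6.02% of stretches), TGACGTCA (CRE, 1.55%), AAGGTCA (half-site of the estrogen-related receptors, 4.08%) and AAGATGGC (YY1, 1.56%). The stretches of Slc25a12 and Slc25a39 held none of the 7 motifs. Of the 18 tested members with a stretch, 8 held CCAAT, 5 CCGGAAG, 3 CACGTG, 1 TGCGCA, 1 TGACGTCA and 0 either of the others. These are matches of letters in a window, and binding was not measured.

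Slc25a12 (aralar), the calcium-regulated aspartate/glutamate carrier of muscle and brain, averaged 5.67 and 5.60 in the WT mice, 4.48, 4.57 and 4.87 in the knockouts and 5.23 and 5.47 in the injected mice. Again every knockout mouse was below the injected mice and these below WT. The lowest, median and highest myofibers were 5.42, 5.55 and 6.02 in WT, 3.92, 4.69 and 5.31 in the knockouts, and 4.55, 5.46 and 5.77 in Smn1deltaSKM+AFS. All 12 knockout fibers, but 3 of the 7 fibers of injected mice, were below every WT fiber. Slc25a12 fell by 1.00 on the log2 scale in the knockouts (SE 0.261, 95% interval -1.60 to -0.40, limma adjusted p = 0.0318, 2.00-fold lower). This call was not kept when arrays were scaled to their median (-0.78, adjusted p = 0.078), under quantile normalization (-0.66, adjusted p = 0.164), with another background correction (-0.65, adjusted p = 0.127) or in the authors' value table (-0.66, adjusted p = 0.159). The probe lies at chr2:71112979-71113038 of mm9, minus strand. Slc25a13 (citrin), the isoform of liver, had a value on 0 WT, 4 knockout and 2 Smn1deltaSKM+AFS arrays and was not tested. Slc25a18, a glutamate carrier, differed by 0.51 and was not called.

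Slc25a39, which takes glutathione into mitochondria, had mouse means of 1.38 and 1.13 in WT, 0.27, 0.04 and -0.07 in the knockouts and 0.40 and 0.53 in Smn1deltaSKM+AFS. Over myofibers it ran from 0.85 to 1.64 in WT (median 1.28), from -0.40 to 0.64 in the knockouts (median 0.07) and from 0.12 to 0.69 in Smn1deltaSKM+AFS (median 0.54). No fiber of either mutant group reached the lowest WT fiber. The difference of knockouts from WT was -1.17 (SE 0.258, 95% interval -1.76 to -0.58, limma adjusted p = 0.0205, 2.25-fold lower), and it was -1.05 without knockout myofibers 1 to 3. The probe spans chr11:102266350-102267022 of mm9, minus strand. Slc25a40, its close relative, differed by 0.24 and its mouse means were spread widely within groups, from -2.13 to 0.21 in the knockouts.

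Slc25a46, a carrier-family protein of the outer membrane that acts on the shape of mitochondria, averaged 2.47 and 2.35 in WT, 0.87, 1.60 and 1.16 in the knockout mice and 1.08 and 1.69 in the injected mice. Mice of the 2 mutant groups overlapped and all were below WT. Myofibers spanned 1.85 to 2.81 in WT (median 2.40), 0.60 to 2.04 in the knockouts (median 1.24) and 0.65 to 1.89 in Smn1deltaSKM+AFS (median 1.42). In the knockouts, 11 of 12 fibers were below the lowest WT fiber. The difference was -1.20 (SE 0.320, 95% interval -1.93 to -0.47, limma adjusted p = 0.0339, 2.30-fold lower). Scaling to the median gave -0.98 with an adjusted p of 0.076, and quantile normalization -1.02 with 0.076.

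Slc25a41, an ATP-magnesium/phosphate carrier without the calcium-binding arm of its relatives, was the 1 member called higher. It had a value on 2 of 8 WT arrays, both of mouse 2 (-2.97 and -2.36), so WT mouse 1 entered the fit with no value and WT rests on 1 mouse. The knockout mice averaged -1.69, -1.51 and -1.39 and the injected mice -1.74 and -1.75. All 12 knockout fibers were above both measured WT fibers. The fitted difference was 1.14 (SE 0.333, 95% interval 0.36 to 1.92, limma adjusted p = 0.0489, 2.20-fold higher). Keeping the measured signal of spots near background gave 1.88 (adjusted p = 0.017), while normexp background correction gave 0.38 (adjusted p = 0.257). Slc25a41 passed the filter with exactly 21 arrays and only through the groups where it was brighter, so its call supports nothing about the family. The nearest member outside the filter was Slc25a35, a carrier with no settled substrate, with 19 arrays. Its mouse means were -0.39 and -0.75 in WT, -1.27, -3.10 and -2.66 in the knockouts (8 of 12 fibers with a value) and -1.61 and -1.995 in the injected mice (3 of 7 fibers). With the filter taken over the 20 WT and knockout arrays, Slc25a35 differed by -1.77 (SE 0.503, limma adjusted p = 0.041). It passed that filter only through WT, where it was brighter and had a value on all 8 arrays, so this call too is only a description. In that setting 6 members were called lower and 0 higher, beside 2385 and 1317 of all genes.

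**Figure D2:**
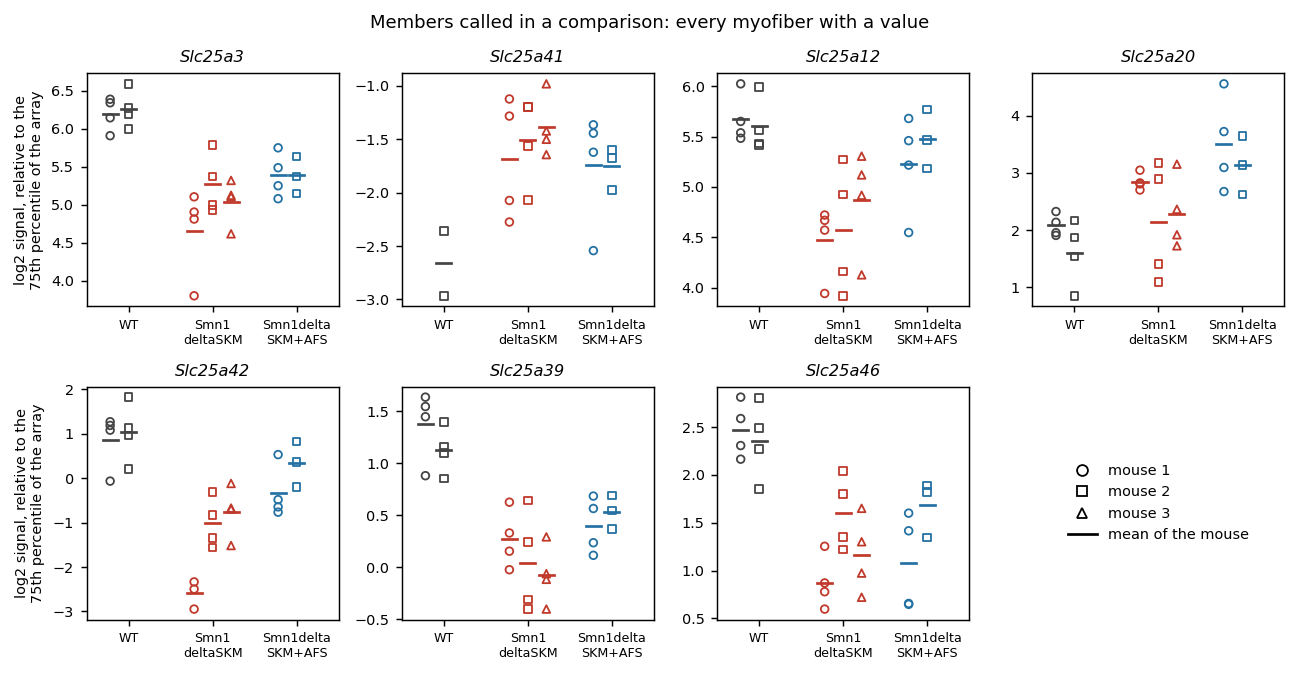
Log2 signal relative to the 75th percentile of the array for the 7 members called in any comparison. Each point is 1 myofiber with a value, grouped by mouse, and bars are mouse means; for Slc25a3 and Slc25a39 no point of either mutant group reaches the lowest WT point, and for Slc25a41 only 2 WT points exist.

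The ADP/ATP carriers exchange the ATP made in the matrix for ADP of the cytosol. Slc25a4, the muscle isoform, averaged 8.36 and 8.24 in WT, 7.98, 7.92 and 7.95 in the knockouts and 8.50 and 8.30 in the injected mice. Its fibers ran from 8.07 through 8.32 to 8.52 in WT, from 7.68 through 7.96 to 8.26 in the knockouts and from 8.12 through 8.35 to 8.97 in Smn1deltaSKM+AFS. The knockout mice were lowest and close together, and 9 of 12 knockout fibers lay below the lowest WT fiber. The difference was -0.35 (SE 0.244, limma adjusted p = 0.317) and turned to 0.12 under quantile normalization, 0.14 with normexp background and quantile normalization and 0.18 in the authors' value table. Slc25a5, the isoform of many other tissues, averaged 1.52 and 1.51 in WT, 2.07, 2.94 and 1.58 in the knockouts and 3.00 and 2.01 in the injected mice. Its difference of 0.68 (SE 0.447) was not called (limma adjusted p = 0.288), with 7 of 12 knockout fibers above the highest WT fiber. Slc25a31, the isoform of testis, had a value on no array.

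The uncoupling proteins were not called in any comparison. Ucp3, the member of skeletal muscle, averaged 0.72 and 2.22 in WT, 0.76, -0.07 and 0.82 in the knockouts and 1.65 in both injected mice. Single fibers spanned 0.02 to 2.31 in WT (median 1.63), -0.43 to 2.35 in the knockouts (median 0.48) and 0.87 to 3.34 in Smn1deltaSKM+AFS (median 1.25). The WT mice were further apart than the group means, and the difference of -0.97 (SE 0.468) had a limma adjusted p of 0.161. A second Ucp3 probe, at chr7:107634291-107634350 of mm9, had a value on 8 of 8 WT, 3 of 12 knockout and 7 of 7 Smn1deltaSKM+AFS arrays and was not tested. Ucp2, which is found in many tissues, had a value on 3 WT, 9 knockout and 3 Smn1deltaSKM+AFS arrays, running from -2.90 to -1.12 over all of them, and was not tested. Ucp1 had a value on 1 WT array (-2.80) and 2 knockout arrays (-3.35 and -2.30). Cidea, known from brown fat and the only 1 of the 4 adipocyte markers here that was tested, was called higher in the knockouts (2.88, limma adjusted p = 0.0157). The summed adipocyte markers, Cidea included, ran from 0.491 to 1.61 in WT, from 3.73 to 17.4 in the knockouts and from 2.80 to 18.9 in Smn1deltaSKM+AFS. Medians in WT and knockouts were -0.60 and 1.84 for Cidea, -2.74 and -1.91 for Adipoq, -2.42 and -1.23 for Plin1 and -2.56 and -1.64 for Cidec. The part of adipocyte RNA in the members' values was not tested.

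Other members with large differences between knockouts and WT were not called. Slc25a25, the calcium-regulated ATP-magnesium/phosphate carrier, averaged 1.39 and 1.28 in WT, -0.29, -0.73 and 0.89 in the knockouts and 0.98 and 1.80 in the injected mice, a difference of -1.38 (SE 0.480, limma adjusted p = 0.0709). Its fibers had medians of 1.45 in WT, -0.44 in the knockouts and 1.56 in Smn1deltaSKM+AFS, and 7 knockout fibers were below the lowest WT fiber. The knockout mice differed among themselves by more than the gap of mouse 3 to WT. Slc25a17, the peroxisomal carrier of coenzymes, averaged 2.14 and 1.98 in WT and 1.93, 1.11 and 1.06 in the knockouts (-0.69, SE 0.338, limma adjusted p = 0.163). Slc25a11, the oxoglutarate/malate carrier, averaged 4.40 and 4.60 in WT and 3.73, 4.21 and 4.02 in the knockouts. It differed by -0.51 (SE 0.266, limma adjusted p = 0.188). Slc25a20, the carnitine/acylcarnitine carrier, averaged 2.08 and 1.61 in WT and 2.84, 2.14 and 2.29 in the knockouts. It differed by 0.58 (SE 0.320, limma adjusted p = 0.21).

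Another 10 tested members differed by -0.46 to 0.62 and none was called. They were the mitoferrins that import iron, Slc25a28 (-0.46) and Slc25a37 (0.62), the citrate carrier Slc25a1 (-0.16), the uncoupling-protein relative Slc25a14 (-0.36), the S-adenosylmethionine carrier Slc25a26 (0.34), the pyrimidine nucleotide carrier Slc25a33 (0.28), the glycine carrier Slc25a38 (-0.16) and the branched-chain amino acid carrier Slc25a44 (0.26), beside Slc25a18 and Slc25a40 above. For Slc25a26, Slc25a37 and Slc25a44 the second probe had the opposite sign (-0.43, -0.36 and -0.82), so no direction is given for these genes.

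The 21 members that were not tested had values on fewer arrays. Slc25a31 and Slc25a45 had none, 12 members had a value on 1 to 10 arrays and 7 on 11 to 20. Slc25a27, a brain relative of the uncoupling proteins, had a value on 7 of 8 WT, 2 of 12 knockout and 0 of 7 Smn1deltaSKM+AFS arrays, and was at least 4.49-fold higher in WT than in Smn1deltaSKM+AFS, a bound set by the background of the dim arrays and not tested. Slc25a24, a calcium-regulated ATP-magnesium/phosphate carrier, had a value on 1, 7 and 0 arrays and was at least 3.74-fold higher in the knockouts than in Smn1deltaSKM+AFS. The knockout mice were uneven, with means of -0.28 in mouse 1 and -2.65 in mouse 2 and no value in mouse 3, and this bound was not tested. Slc25a23, of the same group, had a value on all 8 WT arrays (-1.10 to 0.14) and on 4 arrays of each mutant group, where it reached from -2.80 to 3.16 in the knockouts. Slc25a34, a relative of Slc25a35, had a value on 1 WT, 10 knockout and 3 Smn1deltaSKM+AFS arrays. These patterns are not one-sided, and arrays differ in how many probes rose above background, with medians of 25156 in WT, 31433.5 in the knockouts and 27431 in Smn1deltaSKM+AFS.

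**Figure D3:**
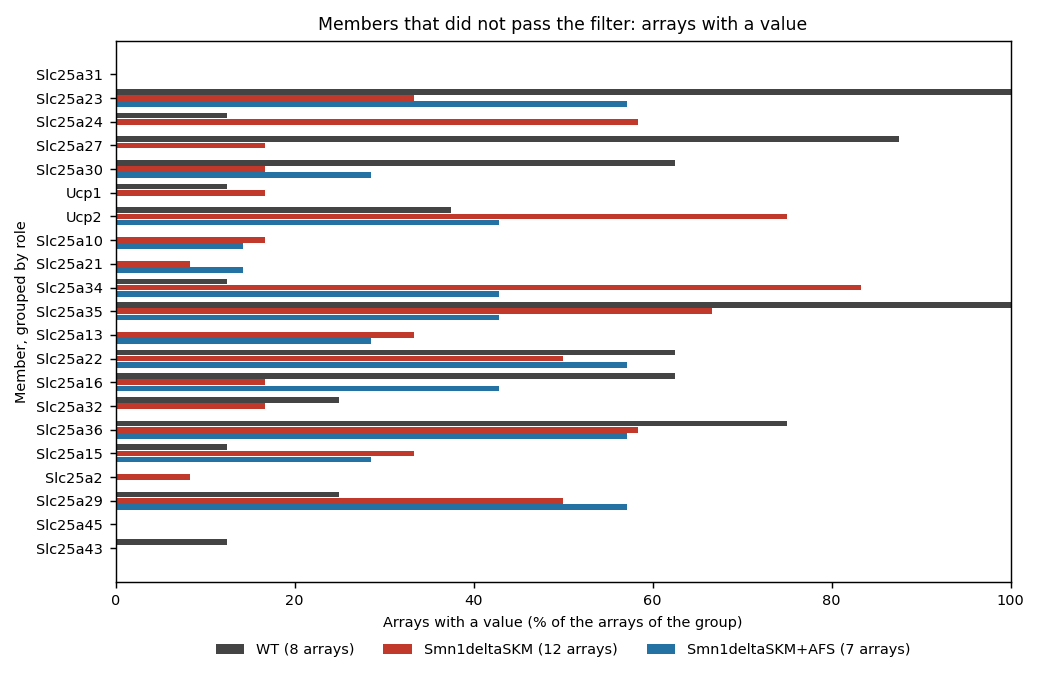
Percent of the arrays of each group on which each of the 21 untested members had a usable value. Slc25a35 and Slc25a23 have a value on all 8 WT arrays, Slc25a34 and Slc25a24 mainly on knockout arrays, and Slc25a31 and Slc25a45 on none.

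Between Smn1deltaSKM+AFS and Smn1deltaSKM mice, which asks whether the injection went with a change in knockout myofibers, 0 members and 0% of all genes were called higher or lower. Without a call, 17 of the 24 members were higher in the injected mice, with a median of 0.34. Of all genes 9550 of 16648 were higher, with a median of 0.058. At an unadjusted p under 0.05, 6 members were higher and 0 lower, and over all genes 452 were higher and 79 lower. The lowest adjusted p of a member was 0.9997 by limma. This comparison shares its knockout mice with the comparison with WT, so a low knockout value makes both differences larger.

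Slc25a42 averaged -2.59, -1.01 and -0.75 in the knockouts against -0.34 and 0.33 in the injected mice, a difference of 1.45 (SE 0.528). Slc25a25 differed by 1.44 (SE 0.480), from -0.29, -0.73 and 0.89 to 0.98 and 1.80. The mice of the 2 groups did not overlap for either, but neither was called, and how often all genes do so was not counted. Ucp3 was 0.76, -0.07 and 0.82 in the knockouts and 1.65 in both injected mice, a difference of 1.15 (SE 0.468). For Slc25a11 the knockout mice had 3.73, 4.21 and 4.02 and the injected mice 4.98 and 4.88, which were above WT (4.40 and 4.60) as well, a difference of 0.95 (SE 0.266). Slc25a20 went from 2.84, 2.14 and 2.29 to 3.51 and 3.14, with a difference of 0.90 (SE 0.320). Its order over groups was WT lowest and injected mice highest, unlike the others. All 7 fibers of injected mice for Slc25a11 lay between 4.52 and 5.69, where knockout fibers lay between 3.14 and 4.86. Slc25a12 differed by 0.71 (SE 0.261). The remaining members called against WT differed by less, Slc25a3 by 0.40, Slc25a39 by 0.39, Slc25a46 by 0.17 and Slc25a41 by -0.22.

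Both groups were scanned on 2 shared days, with 3 fibers of knockout mouse 1 and 2 fibers of mouse 1 of the injected group on day 1. Only 1 slide held fibers of both groups, 1 fiber of each, and knockout mice 2 and 3 shared a slide with no injected fiber. Slide and treatment can therefore hardly be told apart in this comparison. The members' median difference was 0.43 on day 1 and 0.33 on day 2, against 0.21 and 0.064 for all genes. Slc25a42 differed by 2.01 and 1.56 on these days, Slc25a25 by 1.15 and 1.56, Slc25a11 by 1.20 and 0.94 and Slc25a20 by 0.93 and 0.79. These members were chosen on the same fibers, and day 1 holds 1 mouse of each group. A fit over myofibers with the scan day as a block, which counts fibers of 1 mouse as replicates, called Slc25a42 (limma adjusted p = 0.038), Slc25a11 (0.043) and Slc25a25 (0.046) higher, and 230 of all genes higher and 34 lower. With the mouse as a random block in the same fit, 0 members were called.

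**Figure D4:**
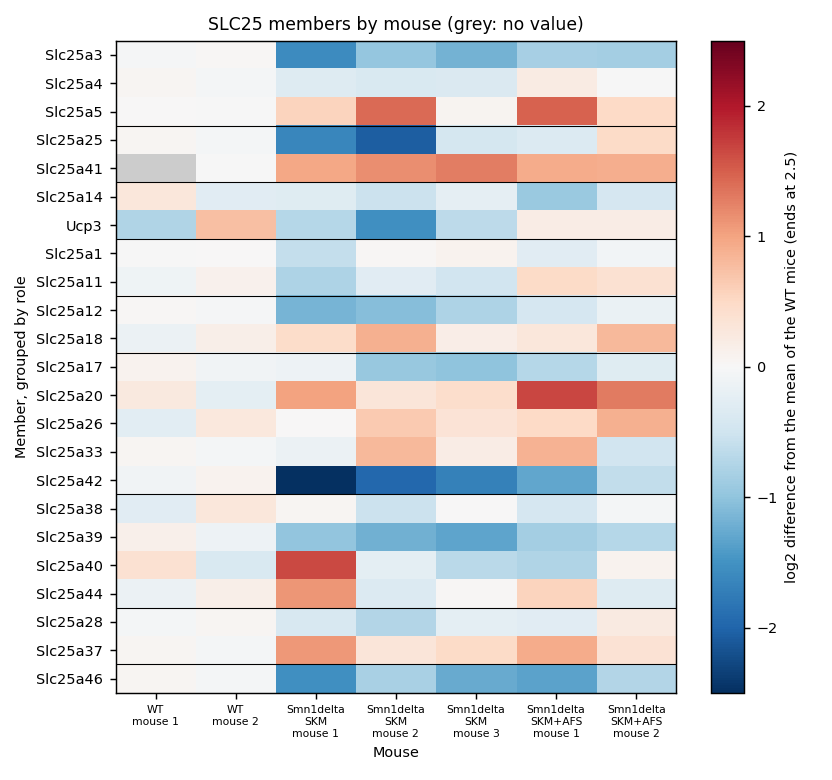
Mean log2 signal of 23 of the 24 tested members in each of the 7 mice, as the difference from the mean of the WT mice, with the colour scale ending at 2.5 in each direction (values beyond it take the end colour) and grey where a mouse had no value. Slc25a42 is lowest in the 3 knockout mice, and Slc25a20 is highest in the 2 injected mice.

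In Smn1deltaSKM+AFS compared with WT, 12 members were lower and 12 higher, with a median of 0.015 against -0.045 for all genes. That median took either sign with the processing, from -0.12 without a filter to 0.14 with median scaling. One member was called, Slc25a20, higher in the injected mice, where 3.47% of all genes were called higher and 4.32% lower. Over myofibers Slc25a20 ran from 0.85 through 1.93 to 2.32 in WT, from 1.09 through 2.75 to 3.17 in the knockouts and from 2.62 through 3.14 to 4.56 in Smn1deltaSKM+AFS. All 7 fibers of the injected mice were above the highest WT fiber. The difference was 1.48 (SE 0.350, 95% interval 0.68 to 2.28, limma adjusted p = 0.0438, 2.79-fold higher), and without knockout myofibers 1 to 3, which enter the estimate of spread, the adjusted p was 0.027. This call was not kept without any 1 of the other 6 mice than knockout mouse 1, and the difference was then 1.24 to 1.72. The probe lies at chr9:108585399-108585458 of mm9, plus strand.

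The members called in the knockouts lay at different distances from WT in the injected mice. Slc25a3 differed from WT by -0.84 (limma adjusted p = 0.112) and Slc25a39 by -0.78 (0.113), with all 7 fibers below WT for each. Slc25a46 differed by -1.03 (adjusted p = 0.1) with 6 of 7 fibers below, and Slc25a42 by -0.95 (adjusted p = 0.304) with 4. Slc25a12 differed by -0.29 (adjusted p = 0.531) with 3 of 7 fibers below. Slc25a41 differed by 0.92 (adjusted p = 0.138). Relative to WT, the median over the members was -0.31, -0.41 and -0.29 in the 3 knockout mice and -0.21 and 0.0092 in the 2 injected mice, so the injected mice differed from each other more than the knockout mice did.

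Genes that work with the carriers were taken from a list of 54, all on the array, of which 47 were tested. In knockouts compared with WT, 40 of the 47 were lower and 7 higher, 11 were called lower and 1 higher, and the median was -0.57, while of all genes tested 54.5% were lower, 13.9% were called lower and 8.04% higher, and the median was -0.11. All 16 genes of the ATP synthase list, its subunits and its inhibitory factor Atpif1, were lower, with a median of -0.73, and 5 were called, Atp5c1 (-1.13), Atp5g3 (-0.93), Atp5k (-0.93), Atp5g2 (-0.88) and Atp5b (-0.86). Of the 3 carnitine shuttle enzymes that work with Slc25a20, Cpt2 was lower by 1.60 (SE 0.315, limma adjusted p = 0.0155) and Cpt1b by 1.45 (SE 0.383, limma adjusted p = 0.0327). Crat differed by -0.37 and was not called (limma adjusted p = 0.366). Slc25a20 itself differed by 0.58 in the other direction and was not called. None of the 4 malate-aspartate shuttle enzymes was called, and the largest difference was that of Got2 (-0.93, limma adjusted p = 0.066).

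Among genes that insert carriers into the inner membrane, Timm10b, named Fxc1 on the array, was lower by 1.49 (SE 0.251, limma adjusted p = 0.0112) and Timm22 by 0.95 (adjusted p = 0.0472). Mpc1, a subunit of the mitochondrial pyruvate carrier and named Brp44l on the array, differed by -1.27 (SE 0.365, limma adjusted p = 0.0418). Sfxn3, of the sideroflexins, a family that carries serine, had the largest difference of the list, -1.92 (SE 0.258, limma adjusted p = 0.0072). The other tested sideroflexins were higher in the knockouts and not called, Sfxn1 by 1.08 (limma adjusted p = 0.055) and Sfxn2 by 0.49 (0.383). Sfxn3 was also lower in Smn1deltaSKM+AFS than in WT (-2.34, adjusted p = 0.0121), as was Fxc1 (-1.29, adjusted p = 0.0352). The mitochondrial creatine kinases, which take up the ATP exported by Slc25a4, went the other way. Ckmt1 was higher in the knockouts (1.57, SE 0.47, limma adjusted p = 0.0457), and Ckmt2, the isoform of muscle, was higher in Smn1deltaSKM+AFS than in WT (1.54, SE 0.350, adjusted p = 0.0406) and differed by 0.21 between knockouts and WT.

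In the injected mice compared with the knockouts 42 of the 47 partner genes were higher and 5 lower, with a median of 0.44 and 0 called. Of all genes 9550 of 16648 were higher, with a median of 0.058 and 0 called. All 16 genes of the ATP synthase list were higher, with a median of 0.49, and so were the 4 malate-aspartate shuttle enzymes, with a median of 0.73. Against WT the partners' median in the injected mice was -0.12, and 2 were called lower and 1 higher, beside 4.32% and 3.47% of all genes.

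**Figure D5:**
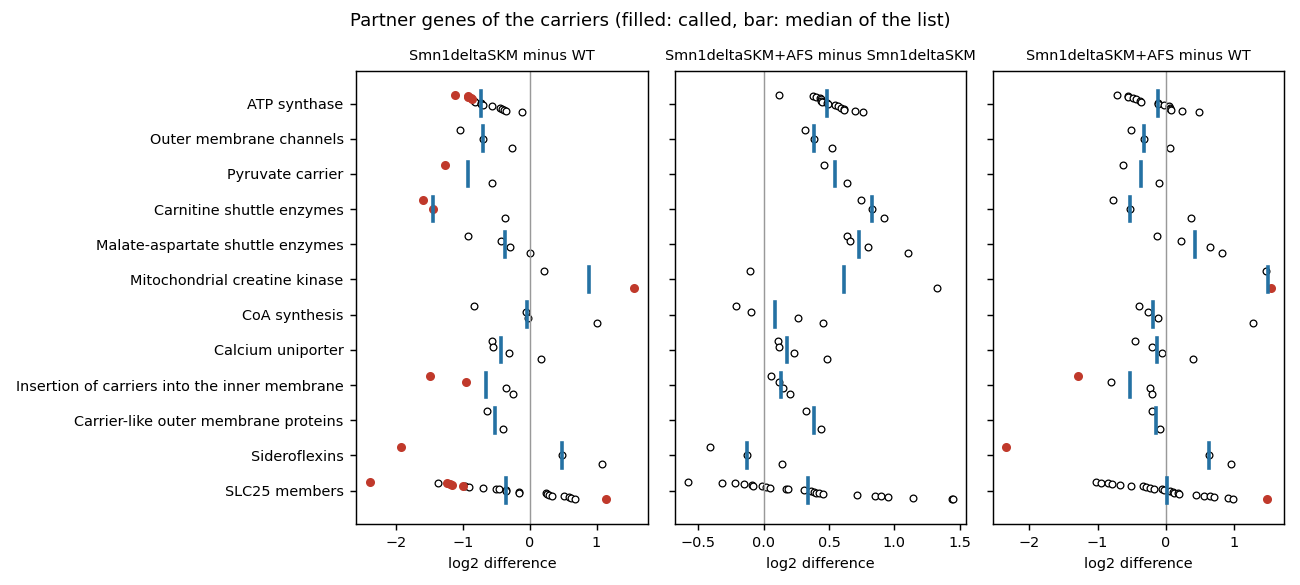
Log2 differences of the 47 tested partner genes by list in the 3 comparisons, with the 24 tested carriers in the bottom line, filled points for called genes and a blue bar at the median of each list. The 16 genes of the ATP synthase list lie below 0 for Smn1deltaSKM minus WT and above 0 for Smn1deltaSKM+AFS minus Smn1deltaSKM.

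Some fiber-type genes differed between the groups. Myh1, a fast myosin heavy chain, averaged 2.41 and 1.00 in WT, 3.24, 4.14 and 4.34 in the knockouts and 5.54 and 4.77 in the injected mice, and was called higher than WT in both (2.20, limma adjusted p = 0.022, and 3.45, adjusted p = 0.0186). Mb, myoglobin, averaged 4.22 and 4.20 in WT, 4.43, 5.43 and 5.61 in the knockouts and 6.26 and 6.82 in the injected mice (0.95, limma adjusted p = 0.110, and 2.33, adjusted p = 0.0255). The mice were in the same order by group for both genes, with WT lowest and the injected mice highest. Ckm, muscle creatine kinase, and Actn3, the fast-fiber actinin, were called lower in the knockouts (-1.76, limma adjusted p = 0.0213, and -1.14, adjusted p = 0.0305). Of the 9 tested myofiber markers 2 were called lower and 1 higher in the knockouts, beside 13.9% and 8.04% of all genes. Acta1 (-0.67, limma adjusted p = 0.127), Tnnc2 (-0.57, 0.126), Tnnt3 (-0.48, 0.202), Myh4 (-0.42, 0.233) and Myh7 (-0.08, 0.816) were not called. Myh1, Mb, Ckm and Actn3 were thus each called against WT in the knockouts, the injected mice or both. None of them was called between the injected mice and the knockouts. The part of fiber type in the members' differences was not tested.

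Within mice, over deviations from the mouse means, 18 of the 24 members varied in the same direction as Mb, with a median Pearson r of 0.30 and a range of -0.34 to 0.81. Slc25a11 had the highest, 0.81 over 27 fibers, followed by Slc25a12 (0.75), Slc25a5 (0.67), Slc25a42 (0.65, 26 fibers), Slc25a20 (0.64) and Slc25a3 (0.61). With Myh1 the median was 0.22, and 18 members were above 0. Among the 17 members with values on all arrays, 104 of 136 pairs varied in the same direction, with a median r of 0.28, and the closest pairs were Slc25a11 with Slc25a28 (0.83), Slc25a11 with Slc25a12 (0.82) and Slc25a3 with Slc25a38 (0.80). These are descriptions, since all values of a fiber share 1 amplification and 1 scaling.

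Fibers of 1 mouse differed in member signals by a median SD of 0.47, from 0.21 for Slc25a4 to 0.69 for Ucp3, and the median over all genes was 0.44. Mouse means within a group had an SD of 0.16 for Slc25a39, 0.17 for Slc25a12, 0.22 for Slc25a3, 0.34 for Slc25a46 and 0.75 for Slc25a42, against differences from WT of 1.00 to 2.40 in size. Immune cell markers also moved, with Ptprc (1.33, limma adjusted p = 0.0213) and Cd68 (2.99, adjusted p = 0.0368) called higher in the knockouts, 2 of the 5 tested, where 8.04% of all genes were called higher. The brighter markers Itgam (-0.14, adjusted p = 0.702) and Csf1r (-0.50, adjusted p = 0.162) of the same list were not called. The summed level of the 6 immune markers was 198 to 314 in WT, 188 to 261 in the knockouts and 230 to 313 in Smn1deltaSKM+AFS. This sum is set mostly by Itgam, with a WT median of 7.85 on the log2 scale. It cannot register Ptprc and Cd68, with WT medians of -1.51 and -1.38. Of the tested markers of endothelium (2), satellite cells (2), erythroid (1) and Schwann cells (1) and of the 1 tested fibroblast marker 0 were called in that comparison. Untested fibroblast markers had values on more knockout than WT arrays, Dcn on 1 of 8 WT and 12 of 12 knockout arrays and Col1a1 on 2 and 9, and the summed fibroblast and mural markers had a median of 0.75 in WT (0.350 to 75.2), 5.56 in the knockouts (1.01 to 19.9) and 8.40 in Smn1deltaSKM+AFS (0.414 to 23.2). The part of immune cell and fibroblast RNA in the members' values was not tested.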

How the data were processed

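RNA of 27 single myofibers was amplified and hybridised to 1-colour Agilent mouse arrays. Per the file headers the intensities are processed signals of Feature Extraction 10.7.3.1, background-subtracted by the scanner software, with probe positions on mm9. The authors also deposited a table of intensities of the same arrays, normalized between arrays by a method not given in the sources used here. Its values are linear and not centred (column medians 57.2 to 177, rank correlation with the processed signals of the same array at least 0.999), and its log2 values served as an alternative only.

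The log2 of the processed signal was taken for each of the 59305 non-control spots, less the 75th percentile of all these spots on the array. Spots that were not found, not well above background or not uniform were then left out. Averaging the spots of a probe gave 55681 probes, and those with a value on 75% or more of the arrays (21 of 27) were kept. The brightest probe stood for a gene. No spot was saturated. The number of arrays and mice limits the precision. Fibers were averaged within a mouse, and limma 3.58.1 in R 4.3.3 was fitted to the 7 mice with 3 group means, with Benjamini-Hochberg adjustment over the 16648 genes and calls at 0.05, 2-sided. Mice are the replicates that the labels name. The script was tested on simulated data. Groups came from the labels.

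Alternatives were other scalings, normexp background correction with an offset of 50, the authors' table, other filters and probe rules, the myofiber as replicate, mouse, slide, scan day and mouse number as blocks, and leaving out each mouse. Leaving out spots marked as population outliers, leaving out WT myofiber 8, and the scan day and mouse blocks together, were added after seeing the data. Members, partner lists and markers were chosen with earlier results of these data known. Members named with values by mouse were those called in any comparison, the ADP/ATP and phosphate carriers, Ucp1 to Ucp3, Slc25a11, Slc25a12, Slc25a13 and Slc25a20, those the study listed, and the 5 largest uncalled differences from WT; 1 tested member is not reported here by name; partner genes were named if called, at most 10 by size, with other partners named for context after their values were seen. All 45 gene names matched RefSeq symbols; Slc25a47, Slc25a48, Slc25a51, Slc25a53 and Slc25a54 are RefSeq symbols not among the array's names.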

Additional observations from a re-analysis of the deposited data

Results flagged for a closer look

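In 47 sets of 4 to 10 fibers of 1 member and group, 2 had a fiber far from the others, where chance alone gives about 1 in 20 sets. Slc25a44 read 3.01 in Smn1deltaSKM+AFS myofiber 3, of mouse 1, with the others at -0.01 to 1.21. Slc25a18 read -2.83 in Smn1deltaSKM+AFS myofiber 4, of mouse 1, with the others at -2.07 to -1.53. None of these 2 members was called in any comparison.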

How the results depend on the processing

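No named member reversed its called direction under any alternative. The number of members called in knockouts compared with WT, 6 as reported, was 3 with quantile normalization (2 lower, 1 higher), 2 with the authors' table (2 lower, 0 higher), 4 with scaling to the median (3 lower, 1 higher), 4 with normexp and quantile normalization (3 lower, 1 higher), 14 with the myofiber as replicate, and 0 to 7 when 1 mouse was left out. Over all genes the calls, 2320 lower and 1339 higher, became 1320 and 1791 with scaling to the median, 1494 and 1238 with quantile normalization, 1561 and 1233 with the authors' table, 5306 and 3770 with the myofiber as replicate, 0 and 0 without WT mouse 1 and 0 and 4 without WT mouse 2. With 1 WT mouse left, that mouse is assumed to vary like the other groups.

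Mouse numbers are shared by the groups, and the correlations of same-numbered mice were 0.15 and 0.04 (WT with knockouts), 0.31 and 0.19 (knockouts with injected) and -0.06 and -0.06 (WT with injected). In a group of 2 mice the deviations from the group mean mirror each other, so these values cannot show whether the numbers pair the mice. With the mouse number as a replicate block 3 members were called in knockouts compared with WT, 1543 genes were lower and 832 higher, and the members' median in the injected mice compared with the knockouts was 0.23.

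The members' median in knockouts compared with WT, -0.35, was -0.14 with median scaling, which moved the median of all genes from -0.11 to 0.10, -0.26 with quantile normalization, -0.12 with normexp, -0.26 with the authors' table, and -0.48 with measured signal kept, with no filter and over genes with values on all arrays (-0.41 to -0.29 without 1 mouse). In injected mice compared with knockouts, 3 rather than 0 members were called with the scan day as a fixed block and 0 to 0 without 1 mouse, and the median, 0.34, was 0.17 with quantile normalization, 0.18 with normexp, 0.17 with the authors' table and 0.23 to 0.40 without 1 mouse. In injected mice compared with WT, 1 member as reported became 2 with measured signal kept, 0 with no filter, 10 with the myofiber as replicate, 4 with the mouse and 0 with the slide as a random block, and 0 to 6 without 1 mouse, where 6 came without knockout mouse 1. The median there, 0.015, was 0.14 with median scaling, 0.12 with quantile normalization, -0.12 with no filter and with the mean of a gene's probes, -0.11 with the slide block, -0.076 without WT myofiber 8, and -0.21 to 0.041 without 1 mouse. The causes were not tested. For injected mice compared with WT, the calls over all genes are not given for these alternative settings. The member counts there are therefore not a result about the family. Of the members called against WT, Slc25a42 lost its call only without either WT mouse (adjusted p 0.151 and 0.109 by limma).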
